A study of Homo sapiens with 48 samples.

Results

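The cells described here are the light alone cells of a time course, compared at 12 h against 3 h after treatment. They were chosen by their labels alone, as the 4 libraries of the light alone arm at 12 h and the 4 at 3 h, which are 8 of the 48 libraries, and the comparison covers all 14685 genes of the deposited count tables. The study used HEK293T, a human embryonic kidney line, transfected with a plasmid for NCBP1 fused to Halo, a protein tag that captures a chloroalkane ligand. NCBP1 is the larger subunit of the complex that holds the cap of nuclear transcripts. In the T-REX arm the tag held a photocaged precursor of the lipid-derived electrophile HNE, which light releases beside NCBP1, and the light alone, probe alone and DMSO arms served as technical controls, with RNA purified at 3, 6 and 12 h and 4 libraries per arm and time point.

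Every arm, controls included, was transfected with the NCBP1-Halo plasmid, so that no arm of untransfected cells is available for comparison. The sample labels call the light alone arm a UV control, whereas the written procedure lists the probe as well as light for it, and whether these cells held the probe could not be settled. The cells of each arm came from transient transfection and not from a selected clone. Replicates are separate libraries of 1 group, and p-values measure only the spread between them. The time after treatment runs together with the time in culture and since transfection, and with any batch in which the libraries of a time point were prepared, and these cannot be told apart.

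Several pathways that follow the state of a culture are referred to below. Cells short of oxygen stabilise the hypoxia-inducible factors (HIF), which turn on glucose uptake, glycolysis and genes that limit mitochondrial respiration. An endoplasmic reticulum (ER) loaded with unfolded proteins activates sensors that raise its chaperones through the transcription factors ATF6 and XBP1, a programme called the unfolded protein response. Growing cells put much of their transcription into making ribosomes, and p53, which is held in check by large T antigen in HEK293T cells, drives genes of cell cycle arrest and repair.

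Each library held between 26979881 and 31657759 counts. Expression is given as counts-per-million (CPM) scaled with TMM factors, and fold changes are on the log2 scale as 12 h against 3 h, from edgeR's quasi-likelihood F-test with p-values adjusted over all genes after Benjamini and Hochberg. A gene is called higher or lower where its adjusted p is at most 0.05. HEK293T markers were present, with 18 of 19 listed genes measured, whereas 0 of 11 haematopoietic, 1 of 10 fibroblast and 1 of 8 mature epithelial markers were among the genes of the table. Along the first principal component, with 50.4% of the variance, the 3 h libraries lay at -24.3 to -17.3 and the 12 h libraries at 19.5 to 21.6. Along the second, with 21.6%, replicates 1 and 4 at 3 h (17.3 and 22.7) stood apart from replicates 2 and 3 at 3 h (-19.3 and -16.9), and the 12 h libraries lay between them. For several lists whose counts moved with this split, but not for all, the counts without 1 or both pairs are given below as well.

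**Figure D1:**
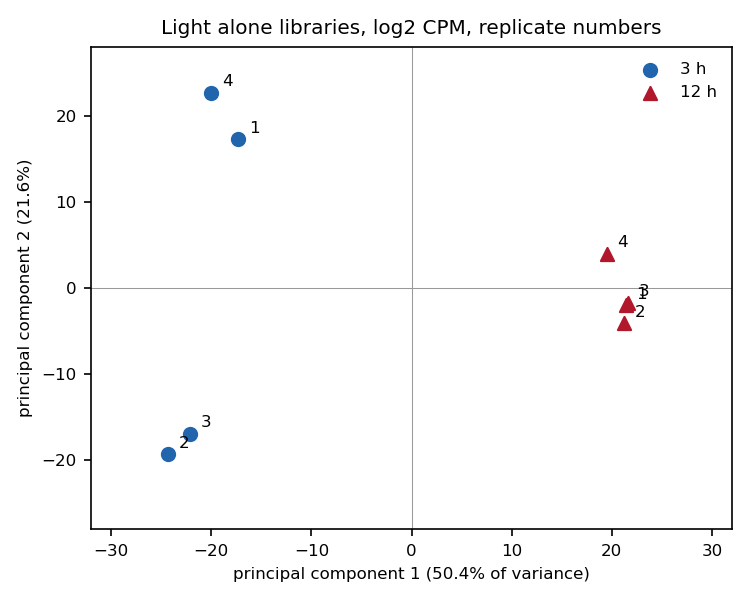
First and second principal component of log2 CPM for the 8 light alone libraries (circles, 3 h; triangles, 12 h; numbers, replicates). The first component, with 50.4% of the variance, separates the time points, and the second, with 21.6%, splits the 3 h libraries into replicates 1 and 4 against 2 and 3.

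Between 3 h and 12 h, 6390 of the 14685 genes were called, which is 43.5% of those tested. Of these, 3455 (23.5%) were higher and 2935 (20.0%) lower at 12 h. Most changes were small, with a median size of 0.34 on the log2 scale among called genes, and 185 called genes changed by at least 1, of which 172 were higher and 13 lower. Against a fold change of 1.2 instead of no change, 1835 genes passed, 1334 of them higher and 501 lower. The 4 libraries of the 2 time points did not overlap for 5440 of the 6390 called genes. Most called genes thus show no overlap, and it adds little to the call of a single gene. The share over all genes tested is not given here. Without replicates 1 and 4 of 3 h, 7052 genes were called, 5566 of them among the 6390, and without replicates 2 and 3 of 3 h, 6438 were called, 5287 among the 6390. At 6 h, the mean level lay between the 3 h and 12 h means for 71.4% of called genes and for 26.3% of the others.

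**Figure D2:**
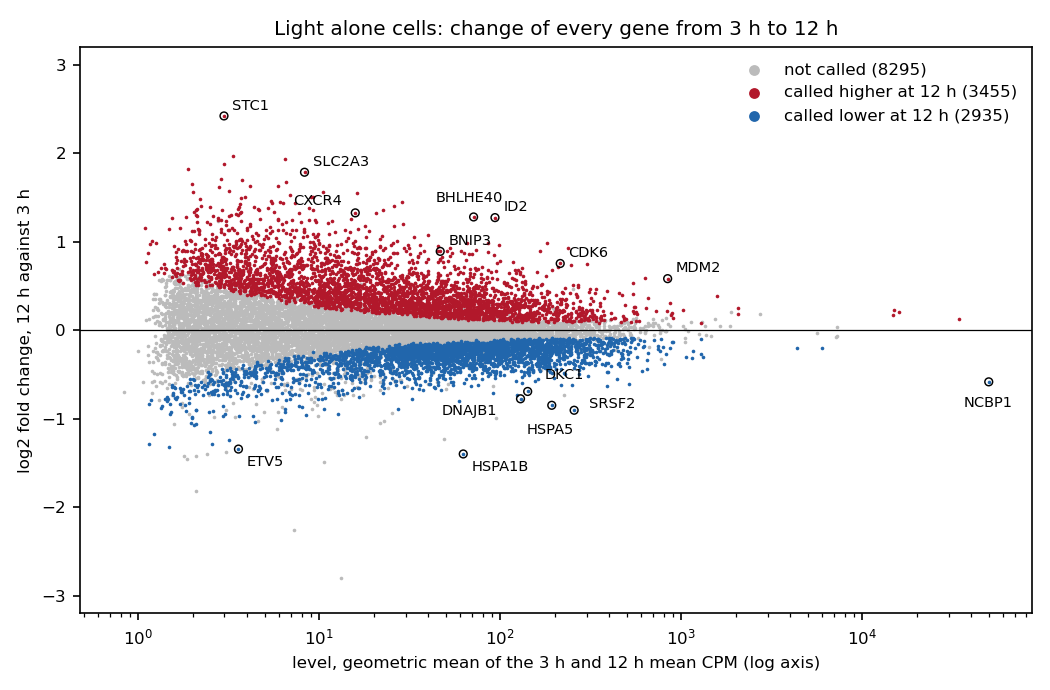
Log2 fold change of each gene, 12 h against 3 h, against its level in CPM on a log axis, with 1 point per gene (red, called higher; blue, called lower; grey, not called). The changes above 1 in size are mostly increases among genes of low and middle level, led by STC1 at 2.42, and NCBP1 stands alone at the right with -0.58.

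The direction of the calls moved with transcript length. Among protein-coding genes divided into 5 equal groups by their longest transcript, 13.3% of the group with the shortest (median 1751 bases) and 38.1% of that with the longest (median 7995 bases) were called higher, while the shares called lower were 18.9% and 22.1%. A correction for GC content and length, added after these values were seen, called 6697 genes with 2874 higher and 3823 lower, so that the share of higher calls went from 54.1% to 42.9%. Antisense transcripts (176 higher, 44 lower of 711) and long intergenic non-coding RNAs (160 higher, 47 lower of 570) rose more often than they fell. Together they took 5.242% to 5.589% of the counts at 3 h and 5.808% to 6.129% at 12 h, without overlap. The part of length and of these transcript classes in the changes of the gene groups below was not tested.

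NCBP1 (ENSG00000136937), which the transfected plasmid encodes and whose counts add plasmid and endogenous transcripts, was at 70900, 58600, 59900 and 56100 CPM in the 4 libraries of 3 h, and at 34600, 42400, 35700 and 49400 CPM in those of 12 h. Every 12 h library lay below every 3 h library. NCBP1 fell by 0.58 ± 0.14 (SE) on the log2 scale (adjusted p = 0.0141), and lost its call with an adjusted p of 0.0593 without replicates 1 and 4 of 3 h and of 0.0597 without replicates 2 and 3. The 6 h mean of 41700 CPM was already near the 12 h mean of 40500 CPM. The transcript took 5.559% to 6.966% of all counts at 3 h and 3.6% to 5.067% at 12 h.

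The 12 largest rises were taken among called protein-coding genes with a mean of at least 100 counts and no overlap between the times. Their lack of overlap is thus a condition of the choice and no further support. Several of the 12 genes encode secreted and membrane proteins. STC1 (ENSG00000159167), which encodes the secreted glycoprotein stanniocalcin 1, was at 0.899, 1.69, 1.1 and 1.5 CPM at 3 h, and at 7.45, 7.8, 7.43 and 4.75 CPM at 12 h. Although replicate 4 was lower than the other 12 h libraries, all of them lay above every 3 h library. STC1 rose 5.36-fold, with a log2 fold change of 2.42 ± 0.21 (adjusted p = 1.47e-07). SLC2A3, the glucose transporter GLUT3, was at 5.01, 4.04, 4.62 and 4.3 CPM at 3 h and at 13.4, 18.3, 14.4 and 15.2 CPM at 12 h, and its libraries did not overlap (log2 fold change 1.78 ± 0.12, adjusted p = 9.37e-09). The others were ID3 (1.96), the netrin receptor UNC5C (1.93), the glutamate transporter SLC1A2 (1.88), the sphingosine phosphatase SGPP2 (1.70), the kinase scaffold KSR2 (1.67), the matricellular protein CCN3 (1.57), the glucose transporter SLC2A12 (1.56), the caveolar protein CAV1 (1.51), STUM (1.51) and the lipid-binding protein OSBPL10 (1.46).

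The 12 largest falls, taken under the same conditions, were led by a chaperone. Lack of overlap was required here too, also where SRSF2, HSPA5 and NIP7 return below. RPS10 and HSPA6 did not meet the conditions. Both were called lower in each of 8 fits without 1 library, at -1.069 to -0.847 and at -1.101 to -0.719. HSPA1B, an inducible cytosolic HSP70, was at 70.2, 124, 144 and 69.1 CPM at 3 h and at 37.3, 41.1, 33 and 41.9 CPM at 12 h. The 3 h libraries were spread along the same split of replicates 2 and 3 from 1 and 4 as the second principal component, and all of them lay above the 12 h libraries. HSPA1B fell by 1.40 ± 0.29 (adjusted p = 0.00936), and its adjusted p lay between 0.00663 and 0.0314 when each library was left out in turn. It has a near-identical copy, HSPA1A, so that the division of reads between them is uncertain. The others were the transcription factor ETV5 (-1.34), TIMM23B (-0.97), the vitamin D hydroxylase CYP27B1 (-0.96), the lysophospholipid transporter MFSD2A (-0.92), the splicing factor SRSF2 (-0.90), the ribosome biogenesis factor NIP7 (-0.89), the potassium channel KCNJ14 (-0.86), NAP1L3 (-0.85), the ER chaperone HSPA5 (-0.85), the histone H2BC4 (-0.80) and the sugar transporter SLC2A8 (-0.79). TIMM23B also has close relatives in the genome.

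**Figure D3:**
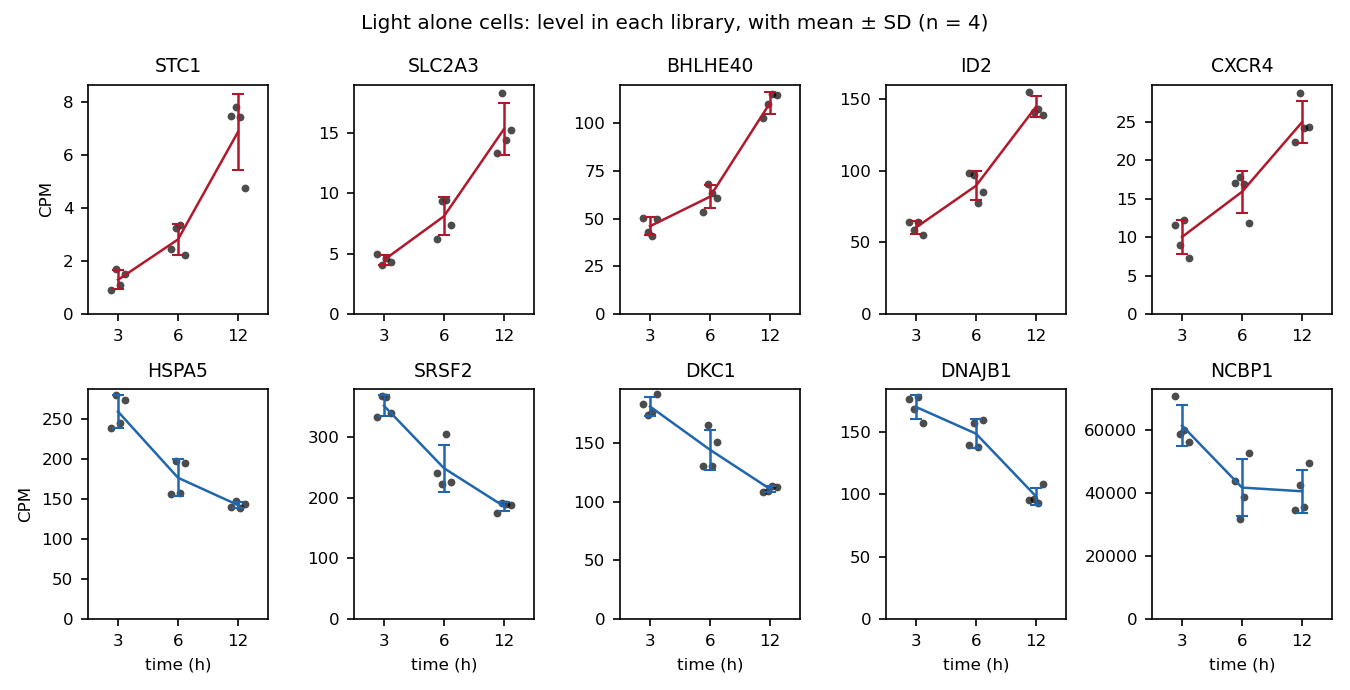
Level in CPM of 10 genes in each light alone library at 3, 6 and 12 h (points), with the mean ± SD of 4 libraries (lines and bars) on axes that start at 0. In each panel the 3 h and 12 h libraries do not overlap, as for HSPA5 with 239 to 280 CPM at 3 h and 139 to 148 CPM at 12 h, and for NCBP1 the 6 h mean lies near that of 12 h. STC1, SLC2A3, HSPA5 and SRSF2 were picked among genes without overlap.

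Genes were then grouped by pathway, and for each list the members called in each direction are to be read against the 23.5% and 20.0% of all genes called higher and lower, and its median against the median of 0.0075 over all genes. In bulk RNA, fewer cells of a kind and less RNA in each cell cannot be told apart.

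Genes of the hypoxia response rose together. Of 33 measured members, 25 were higher and 1 was lower, with a median log2 fold change of 0.61, and 21 of the 25 also passed the test against a fold of 1.2. The core of the motif that HIF binds, ACGTG, was found on either strand within 250 bases before to 50 bases after the start of 17 of the 27 members with a RefSeq promoter (63.0%), against 21.6% of 27305 promoters and 26.9% of those of the genes tested. It was held by 25.1% of the promoters of genes called higher and by 30.4% of those of genes called lower, and by 54.5% in the lysosome list, 52.6% in the clock list and 7 of 14 in the cap-binding list. This core lies within the E-box CACGTG where a C precedes it. Windows of the upstream regions of 3 members that rose are shown (RefSeq, GRCh38.p14), with the core and, for BNIP3 and ANKRD37, the E-box around it in capitals. In the window of P4HA1 the core reads in reverse complement.
BNIP3, chr10:131982013-131982097, minus strand: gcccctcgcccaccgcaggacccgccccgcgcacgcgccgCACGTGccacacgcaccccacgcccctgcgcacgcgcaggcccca
ANKRD37, chr4:185396639-185396723, plus strand: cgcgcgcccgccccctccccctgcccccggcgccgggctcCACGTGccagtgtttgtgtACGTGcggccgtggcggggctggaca
P4HA1, chr10:73096908-73096992, minus strand: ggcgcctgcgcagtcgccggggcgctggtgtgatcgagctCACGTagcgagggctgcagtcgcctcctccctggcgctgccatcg

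BNIP3, a mitochondrial receptor for mitophagy, was at 30.3, 35.7, 38.3 and 33.4 CPM at 3 h and at 63.3, 69.4, 62.9 and 57 CPM at 12 h. No 12 h library fell within the 3 h range, and BNIP3 rose by 0.89 ± 0.08 (adjusted p = 3.06e-07). SLC2A1, the glucose transporter GLUT1, was at 33.9, 33.5, 37.4 and 35.2 CPM at 3 h and at 51.9, 61.4, 67.1 and 56.2 CPM at 12 h. It rose by 0.77 ± 0.07 (adjusted p = 3.88e-07), while its 6 h mean of 34.3 CPM was close to the 3 h mean of 35 CPM. PDK1, a mitochondrial kinase that inhibits pyruvate dehydrogenase, was at 82.9, 90.5, 90.9 and 98.6 CPM at 3 h and at 146, 168, 159 and 139 CPM at 12 h (log2 fold change 0.77 ± 0.07, adjusted p = 2e-06). It likewise showed no overlap and little change by 6 h, with a mean of 100 CPM then.

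The members that rose had several roles. Enzymes that set glycolytic flux were among them, with PFKFB4 (0.84), PFKFB3 (0.66), the hexokinase HK2 (0.66) and the enolase ENO2 (0.81). The secreted factors ADM (0.75) and VEGFA (0.48) act on blood vessels. EGLN3 (0.89), a prolyl hydroxylase that marks HIF for degradation, rose, whereas its relative EGLN1 was not called (0.00 ± 0.22). ANKRD37 (0.98), NDRG1 (0.88), the MYC antagonist MXI1 (0.86) and the collagen prolyl hydroxylase P4HA1 (0.62) rose too. The member that fell was the aldolase ALDOC (-0.50). PGK1 (-0.13 ± 0.08), HIGD1A, FAM162A, BNIP3L, P4HA2 and KDM4B were not called. LDHA, at 497 to 565 CPM at 3 h and 556 to 651 CPM at 12 h, overlapped between the times, and its change of 0.18 ± 0.06 (adjusted p = 0.0349) was called in 4 of 8 fits made without 1 library each.

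Across glycolysis as a whole, 8 of 23 members were higher and 3 lower, with a median of 0.05. The 8 included glucose transporters, HK2, PFKFB3, PFKFB4, ENO2 and LDHA, which the hypoxia list also holds, and the aldolase ALDOA (0.66). Most enzymes of the common trunk, such as GAPDH (0.04), TPI1 (0.00), ENO1 (-0.05) and PKM (0.09), were not called. TXNIP, an arrestin that limits glucose uptake and a target of the glucose-sensing factor MondoA, was at 51.3, 56.7, 61 and 56.7 CPM at 3 h and at 31.7, 37, 34.9 and 41.7 CPM at 12 h, without overlap, and fell by 0.62 ± 0.08 (adjusted p = 1.09e-05).

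In the list of the TGF-beta and BMP response, 9 of 18 members were higher and 1 lower at 12 h, with a median of 0.31, and 8 were not called. ID2, an inhibitor of basic helix-loop-helix factors, was at 64.5, 58.5, 64 and 55 CPM at 3 h and at 155, 141, 143 and 139 CPM at 12 h. Its libraries did not overlap and it rose 2.42-fold (log2 fold change 1.27 ± 0.05, adjusted p = 1.15e-10). ID3 was at 1.11, 2.18, 2.69 and 0.823 CPM at 3 h and at 7.13, 5.07, 7.22 and 7.14 CPM at 12 h. ID4 (0.85), the inhibitory SMAD6 (0.69), the ligands BMP4 (0.56) and BMP7 (0.50) and the co-receptor TGFBR3 (0.54) rose as well. The receptor TGFBR1 fell (-0.23), and SMAD7 (0.09 ± 0.14) was not called.

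Targets of p53 rose without an exception among the called members, with 16 of 25 higher, 0 lower and a median of 0.37, and 10 of the 16 passed the test against a fold of 1.2. CDKN1A, the cell cycle inhibitor p21, was at 155, 172, 178 and 109 CPM at 3 h and at 239, 242, 244 and 251 CPM at 12 h. Replicate 4 of 3 h was the lowest, and every 12 h library exceeded every 3 h library (log2 fold change 0.68 ± 0.16, adjusted p = 0.0136). FAS, a death receptor, was at 44.5, 37.1, 40.2 and 30.9 CPM at 3 h and at 70.4, 72.7, 64.9 and 80.9 CPM at 12 h, again without overlap (0.93 ± 0.11, adjusted p = 0.000123). SESN1 (0.86), MDM2 (0.58), which encodes the ubiquitin ligase for p53, the growth inhibitor BTG2 (0.58), and the DNA damage recognition factors DDB2 (0.48) and XPC (0.40) were among the others. BAX (0.13), AEN, PHLDA3, BBC3 and GADD45A were not called. Without replicates 1 and 4 of 3 h the list had 16 higher and 1 lower, and without replicates 2 and 3 it had 22 higher and 0 lower. The wider list of nucleotide excision repair, the pathway that removes lesions made by ultraviolet light, was mixed, with 7 of 30 members higher and 6 lower, and DDB2 and XPC had its largest increases. After the correction for GC content and length, 4 of the 30 were higher and 8 lower.

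Genes of adhesion and the extracellular matrix rose, with 24 of 36 higher, 0 lower and a median of 0.32. With the correction for length and GC content the counts were 19 and 1, and against a fold of 1.2 they were 9 and 0. The counts were 21 and 4 without replicates 1 and 4 of 3 h. The matrix protease MMP2 was at 3.39, 4.08, 4.69 and 5.01 CPM at 3 h and at 6.28, 8.55, 8.01 and 9.21 CPM at 12 h, and its libraries did not overlap (0.92 ± 0.15, adjusted p = 0.000113). The laminin chain LAMA4 (0.80), the heparan sulphate proteoglycan HSPG2 (0.79), fibronectin FN1 (0.68) and the collagen crosslinking enzyme LOX (0.69) rose. COL1A1, the one fibroblast marker measured, rose by 0.69 ± 0.21 (adjusted p = 0.0151) and lost its call without replicate 4 of 12 h and without replicates 1 and 4 of 3 h (0.31). Of the HEK293T markers, 12 of 18 were higher and 0 lower, with a median of 0.30, among them the neurofilaments NEFL (0.90) and NEFM (0.62) and the insulin receptor substrate IRS4 (0.54).

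The transcription factor lists that follow growth factor withdrawal, daily rhythm and cell contact stood at different distances from the shares of all genes. Among FOXO targets, 10 of 19 were higher and TXNIP alone was lower, with a median of 0.25, and FOXO1 (0.44) and FOXO4 (0.58) themselves rose. The clock list was divided, with 6 of 21 higher and 6 lower (28.6% each, against 23.5% and 20.0% of all genes). Its largest change was BHLHE40, a repressor that HIF can also induce, at 50.4, 43, 40.9 and 49.6 CPM at 3 h and 102, 110, 115 and 115 CPM at 12 h, without overlap (1.28 ± 0.06, adjusted p = 8.25e-10). NPAS2 (0.70), BHLHE41 (0.67) and NFIL3 (0.51) rose, PER2 (-0.39) and CRY1 (-0.33) fell, and CLOCK (0.01 ± 0.04) was not called. Wnt feedback genes had 7 of 13 higher and 2 lower, with LGR5 (0.87), TNFRSF19 (0.82) and LEF1 (0.64) higher and ZNRF3 (-0.35) lower, and 4 higher and 2 lower after the correction for length and GC content. Of YAP and TEAD targets, 5 of 16 were higher (31.2%) and 0 lower, with a median of -0.09. After the correction for length and GC content, 5 were higher and 3 lower. The most widely used reporters CCN1 (-0.24 ± 0.15) and CCN2 (-0.11) were not called. CCN1 was 1 of 3 members called lower without replicates 1 and 4 of 3 h (-0.42, adjusted p = 0.0447).

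**Figure D4:**
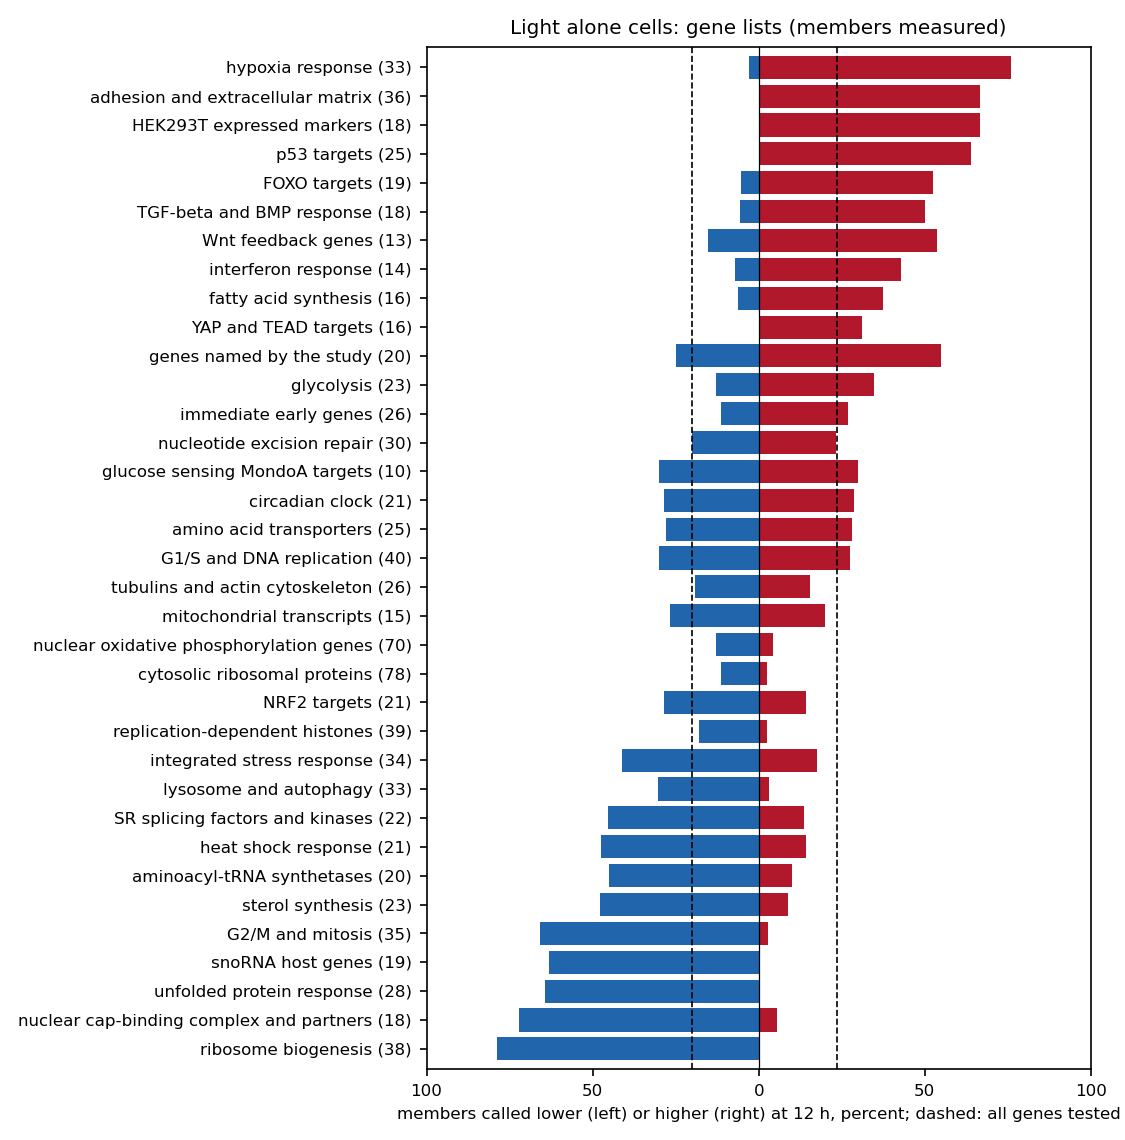
Percent of the measured members of each gene list called lower (blue, to the left) or higher (red, to the right) at 12 h in light alone cells, with the number measured in brackets. Dashed lines mark the 20.0% and 23.5% of all genes called lower and higher, and the lists run from hypoxia response, with 25 of 33 higher, to ribosome biogenesis, with 30 of 38 lower.

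The unfolded protein response was lower at 12 h. Of 28 members, 18 were lower and 0 higher, with a median of -0.25, and 9 of the 18 passed the test against a fold of 1.2. The ER stress element, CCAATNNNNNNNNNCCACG, through which ATF6 acts, was searched after these changes were known. It was found on either strand in the same window around the start of 6 of 25 members with a promoter (24.0%), against 22 of 27305 promoters (0.0806%) and 14 of the 10442 of genes tested (0.134%). The 6 are XBP1, HSPA5, HSP90B1, CALR, CANX and CRELD2, and all of them fell. Of the 14 genes tested that hold it, 7 were among the 2301 called lower with a promoter, these 6 included. Among the 2546 called higher, 1 held it, and the rest of the 14 were not called. Every match also holds the CCAAT box. Upstream windows of 4 of them are shown (RefSeq, GRCh38.p14), since these members fell together, with the element in capitals, which reads in reverse complement for CRELD2.
HSPA5, chr9:125241351-125241449, minus strand: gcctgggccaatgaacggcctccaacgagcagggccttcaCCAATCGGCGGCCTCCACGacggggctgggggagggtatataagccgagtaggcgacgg
HSP90B1, chr12:103930176-103930274, plus strand: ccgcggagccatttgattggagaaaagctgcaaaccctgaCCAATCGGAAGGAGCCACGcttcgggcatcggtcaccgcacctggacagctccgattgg
CANX, chr5:179698738-179698836, plus strand: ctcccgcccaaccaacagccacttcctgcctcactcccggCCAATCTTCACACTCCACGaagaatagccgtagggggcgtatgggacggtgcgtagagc
CRELD2, chr22:49918514-49918612, plus strand: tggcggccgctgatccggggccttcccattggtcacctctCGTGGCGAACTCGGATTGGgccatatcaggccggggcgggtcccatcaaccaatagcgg

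HSPA5, the major ER chaperone BiP, was at 239, 280, 245 and 274 CPM at 3 h and at 141, 148, 139 and 144 CPM at 12 h. All 12 h libraries lay below all 3 h libraries, and HSPA5 fell by 0.85 ± 0.05 (adjusted p = 4.61e-09). XBP1, the factor that ER stress activates by splicing, was at 80.9, 81.6, 78.3 and 74.9 CPM at 3 h and at 49.2, 56.8, 53.1 and 54.9 CPM at 12 h, also without overlap (-0.55 ± 0.05, adjusted p = 4.3e-07). HERPUD1, which serves the degradation of ER proteins, was at 37.2, 46.5, 38.7 and 40.8 CPM at 3 h and at 27.2, 25, 22.9 and 27.7 CPM at 12 h (-0.65 ± 0.08, adjusted p = 4.89e-06). The levels at the 2 times were again separate. Without replicates 1 and 4 of 3 h, 18 members were lower and EDEM1 (0.11) was higher, and ATF6 lost its call (adjusted p = 0.102). Without replicates 2 and 3, 18 were lower and 0 higher, and CRELD2 lost its call (-0.31). The secreted factors CRELD2 (-0.60) and MANF (-0.50), the ER lectins CALR (-0.43) and CANX (-0.10), HSP90B1 (-0.38) and the sensor ATF6 (-0.15) fell too. The sensor ERN1 (-0.08), EDEM1 (0.09), SYVN1 (0.05) and SDF2L1 (0.18) were not called.

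Cytosolic chaperones showed both directions. Of the heat shock list, 10 of 21 were lower and 3 higher, with a median of -0.12. DNAJB1, a co-chaperone of HSP70, was at 177, 168, 178 and 157 CPM at 3 h and at 95.6, 96.6, 93.4 and 108 CPM at 12 h, with no overlap (-0.78 ± 0.05, adjusted p = 1.42e-08). BAG3 (-0.70) and HSPA8 (-0.31) fell, whereas the small heat shock protein HSPB1 (0.78) and HSP90AA1 (0.23) rose, and HSP90AB1 (-0.01 ± 0.04) was not called.

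Genes of ribosome biogenesis were lower in nearly the whole list, with 30 of 38 lower, 0 higher and a median of -0.32. Against a fold of 1.2, 11 of them passed. DKC1, the pseudouridine synthase dyskerin, was at 183, 174, 176 and 192 CPM at 3 h and at 109, 109, 113 and 113 CPM at 12 h, and the times did not overlap (-0.69 ± 0.04, adjusted p = 1.3e-09). NIP7 was at 37, 36.1, 33.6 and 42.2 CPM at 3 h and at 20.3, 20, 21 and 18.2 CPM at 12 h (-0.89 ± 0.08, adjusted p = 1.11e-07). Both genes act in the maturation of the ribosome in the nucleolus. NOP16 (-0.76), UTP15 (-0.60), the helicase DDX21 (-0.55), subunits of RNA polymerase I such as POLR1B (-0.46), and nucleolin NCL (-0.27) fell. Those not called included the methyltransferase FBL (0.08) and the RNA polymerase I factor UBTF (-0.03). The genes of the ribosomal proteins themselves mostly were not called, with 9 of 78 lower, 2 higher and a median of -0.02. The 9 became 16 after the correction for length and GC content, 15 with DESeq2 and 2 in the fit of 32 libraries. Without replicates 1 and 4 of 3 h, 18 were higher and 17 lower, and without replicates 2 and 3, 7 were higher and 21 lower.

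Non-coding hosts of small nucleolar RNAs and other transcripts that nonsense-mediated decay degrades had 12 of 19 lower and 0 higher (median -0.26), among them ZFAS1 (-0.46), SNHG17 (-0.37) and GAS5 (-0.26). Aminoacyl-tRNA synthetases, which charge tRNAs for translation, had 9 of 20 lower and 2 higher (median -0.11), with YARS1 (-0.38) and GARS1 (-0.33) showing the largest falls. Targets of the integrated stress response, which ATF4 governs, had 14 of 34 lower and 6 higher (median -0.14). ATF4 was at 403, 377, 363 and 359 CPM at 3 h and at 318, 320, 316 and 338 CPM at 12 h, without overlap (-0.20 ± 0.04, adjusted p = 0.000433). ATF5 (-0.78), the phosphatase subunit PPP1R15A (-0.55) and the cystine transporter SLC7A11 (-0.49) fell with it. DDIT4 (1.0), VLDLR (0.72), VEGFA (0.48) and STC2 (0.35), which rose, respond to hypoxia as well. DDIT4, an inhibitor of mTORC1 signalling, was at 19, 23.4, 18.6 and 15.2 CPM at 3 h and at 32.5, 37.6, 38.9 and 42.4 CPM at 12 h.

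The nuclear cap-binding complex and its partners were lower beside NCBP1. Of 18 members, 13 were lower, 1 was higher and the median was -0.26. NCBP2, the small subunit that contacts the cap, fell by 0.37 ± 0.07 (adjusted p = 0.000212), from a mean of 34 CPM to 26.1 CPM. SRRT, the adaptor ARS2, was at 117, 136, 133 and 120 CPM at 3 h and at 83.5, 89, 89 and 91.2 CPM at 12 h, without overlap (-0.50 ± 0.05, adjusted p = 9.66e-07). The importin KPNA2 (-0.46), the export adaptors ALYREF (-0.45) and PHAX (-0.28), the kinase RPS6KB1 (-0.47) and NCBP3 (-0.20) fell, CTIF (0.41), which directs translation on the cap-binding complex, rose, and the splicing factor SF3A1 (0.04) was not called.

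SR proteins, which bind exons and guide the spliceosome, moved unequally. Of the 22 SR factors and kinases, 10 were lower and 3 higher, with a median of -0.05. SRSF2 was at 334, 368, 366 and 340 CPM at 3 h and at 175, 192, 189 and 189 CPM at 12 h, with no overlap, and fell by 0.90 ± 0.04 (adjusted p = 3.06e-10). SRSF6 (-0.62) and SRRM1 (-0.47) fell too. SRSF5 moved the other way, at 232, 244, 232 and 208 CPM at 3 h and 338, 322, 308 and 303 CPM at 12 h, again without overlap (0.49 ± 0.05, adjusted p = 3.05e-06). The kinases CLK1 (0.03) and SRPK1 (-0.04) were not called.

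The cell cycle lists differed by phase in the main fit. Genes of G2/M and mitosis had 23 of 35 lower and 1 higher, with a median of -0.16, and 6 of the 23 passed the test against a fold of 1.2. CDC20, the activator of the anaphase-promoting complex, was at 68.4, 58.6, 70.4 and 61.6 CPM at 3 h and at 45.5, 45.8, 45.3 and 46.6 CPM at 12 h, without overlap (-0.48 ± 0.06, adjusted p = 5.07e-06). The kinases AURKA (-0.46) and PLK1 (-0.45) and the ubiquitin enzyme UBE2C (-0.45) fell, while the hyaluronan receptor HMMR (0.42) rose. Genes of G1/S and DNA replication were mixed, with 11 of 40 higher and 12 lower. After the correction for GC content and length, 8 were higher and 18 lower. Without replicates 1 and 4 of 3 h the counts were 9 and 16, and without replicates 2 and 3 they were 13 and 13. CDK6 (0.75) and the repressor E2F7 (0.65) rose, and RRM2 (-0.48) and CDC6 (-0.47), which serve DNA synthesis, fell. Among replication-dependent histones, whose transcripts mostly lack poly(A) tails, 7 of 39 were lower and 1 higher with a median of -0.37, and 13 were lower with DESeq2. This list followed the split of the 3 h libraries, since 26 were lower and 1 higher without replicates 1 and 4 of 3 h, but 7 lower and 9 higher without replicates 2 and 3. H2AC25, picked after its values were seen, was at 4.04, 72.8, 58 and 5.46 CPM at 3 h and at 5.15, 5.38, 4.84 and 4.64 CPM at 12 h. The times overlapped, and its change of -2.80 ± 1.05 (adjusted p = 0.0762) was not called.

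Sterol synthesis genes, which the factor SREBP2 controls, had 11 of 23 lower and 2 higher, with a median of -0.13. NSDHL, a dehydrogenase of the later steps, was at 33.3, 30, 29.4 and 35.4 CPM at 3 h and at 19.1, 21.4, 21 and 23.6 CPM at 12 h, without overlap (-0.57 ± 0.08, adjusted p = 1.83e-05). The isomerase IDI1 (-0.45) and the synthase HMGCS1 (-0.42), which act earlier in the pathway, fell too. ABCA1, which exports cholesterol, was at 27.2, 26.5, 25.4 and 24.8 CPM at 3 h and at 52.1, 47.2, 45.1 and 56.6 CPM at 12 h, again apart, and rose by 0.97 ± 0.07 (adjusted p = 2.08e-08). Of the NRF2 targets, the antioxidant programme that electrophiles induce, 6 of 21 were lower and 3 higher (median -0.03), with HMOX1 (-0.48), TXNRD1 (-0.41) and SLC7A11 lower and NQO1 (0.03 ± 0.16) not called.

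Nuclear genes of oxidative phosphorylation mostly were not called, with 9 of 70 lower and 3 higher (median -0.05), and 16 lower after the correction for length and GC content. The counts were 7 higher and 14 lower without replicates 1 and 4 of 3 h, and without replicates 2 and 3, 4 were higher and 15 lower. The mitochondrial transcripts took 7.49% to 8.426% of the counts at 3 h and 8.172% to 8.841% at 12 h, and 4 of 15 were lower and 3 higher, with MT-CO2 (-0.21) lower and MT-ND5 (0.23) higher. The mitochondrial ribosomal RNAs MT-RNR1 and MT-RNR2 fell more, at -0.791 to -0.636 and -0.507 to -0.354 over 8 fits without 1 library. Both were called in each. The libraries were depleted of ribosomal RNA, and its part in these changes was not tested. Immediate early genes had 7 of 26 higher and 3 lower, with FOSL1 (0.78) and HES1 (0.62) higher and FOS (0.13 ± 0.16) not called. The direction of this list turned with the 3 h libraries, at 6 higher and 9 lower without replicates 1 and 4 and at 12 higher and 1 lower without replicates 2 and 3. In the interferon response, 6 of 14 measured members were higher and 1 was lower, with SAMD9 (0.61) the largest, and 3 were higher without replicates 2 and 3 of 3 h. Of the lysosome and autophagy genes, 10 of 33 were lower and 1 higher, with FLCN (-0.39) and LAMP2 (-0.30) lower, and 0 of the 10 passed the test against a fold of 1.2.

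Several of the 20 measured genes that the study names for its RNA-seq differed between 3 h and 12 h in light alone cells, with 11 higher and 5 lower. CXCR4, a chemokine receptor, was at 11.6, 9.02, 12.2 and 7.37 CPM at 3 h and at 22.4, 28.8, 24.2 and 24.3 CPM at 12 h, without overlap (1.33 ± 0.15, adjusted p = 2.41e-05). IGFBP5 (1.07), EGLN3 (0.89), BNIP3 (0.89), the kinase MAP2K6 (0.80), BMP4 (0.56), HRK (0.50) and DACH1 (0.48) rose, while TXNIP (-0.62), XBP1 (-0.55) and YARS1 (-0.38) fell. DACH1, a developmental transcription factor, was at 79.8, 72.7, 75.1 and 78.4 CPM at 3 h, at a mean of 110 CPM at 6 h, and at 109, 101, 111 and 101 CPM at 12 h. The study chose these genes on samples that include the present libraries, so that their count is not independent evidence.

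To ask what of this belonged to light alone, the same change was estimated in each arm in 1 fit of the 32 libraries at 3 and 12 h. In that fit, 5716 genes (38.9%) were called with light alone, 5712 (38.9%) with DMSO, 6175 (42.0%) with probe alone and 6096 (41.5%) with T-REX. Of the 5716 genes, 76.3% were called in the same direction with DMSO, 73.7% with probe alone and 75.2% with T-REX, which is 76.3%, 68.3% and 70.6% of the calls of those arms, and 0, 5 and 2 genes were called in opposite directions. The arms' own changes rest on separate libraries. The rise of ID2 was 1.26 with light alone, 1.19 with DMSO, 0.96 with probe alone and 1.11 with T-REX, and the fall of HSPA5 was -0.86, -0.84, -0.94 and -0.98 in that order. The rise of STC1 was 2.41, 1.48, 1.58 and 1.68. NCBP1 changed by -0.59 with light alone and -0.64 with DMSO, by -0.13 (not called) with probe alone and by -0.40 with T-REX.

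The difference between the change with light alone and that with another arm was then tested gene by gene, and all 3 tests share the light alone libraries. Against DMSO, 2 genes were called (0.0136% of those tested), and 602 had an unadjusted p no greater than 0.05. In simulated counts, 200 genes with a mean of at least 100 counts were changed. The test of the difference recovered 10.4%, 46.3% and 92.4% of log2 differences of 0.3, 0.5 and 1. The simulation held no change over time in other genes and no split of the 3 h libraries, so recovery in the data may differ. A gene that was not called may therefore still differ between the arms. HERPUD1 was at 37.2 to 46.5 CPM with light alone and 31.6 to 33.1 CPM with DMSO at 3 h, and at 22.9 to 27.7 and 27.7 to 32.4 CPM at 12 h. It thus started higher with light alone, and its change was lower by -0.56 ± 0.10 (adjusted p = 0.0394). TIPARP, a target of the aryl hydrocarbon receptor, was at 89.6 to 105 CPM with light alone and 89.9 to 97.9 CPM with DMSO at 3 h, and at 77.1 to 89.2 and 53.8 to 61.8 CPM at 12 h, so that the arms overlapped at 3 h and not at 12 h (0.51 ± 0.10, adjusted p = 0.0394). Both calls were kept in 3 of 16 fits made without 1 library each.

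Against T-REX, 12 genes were called (0.0817%) and 1047 had an unadjusted p no greater than 0.05. The signed log2 change with light alone lay above that with T-REX for 10 of the 12 and below it for 2. Of the 12, 6 belonged to the hypoxia list of 33, namely P4HA1, SLC2A1, PDK1, BNIP3, LDHA and PFKFB3. P4HA1 was at 39.8 to 43.8 CPM with light alone and 41.2 to 46.6 CPM with T-REX at 3 h, and at 58.3 to 72.1 and 39.2 to 47.5 CPM at 12 h. The arms overlapped at 3 h and were separate at 12 h, and the changes of 0.61 and -0.06 differed by 0.67 ± 0.11 (adjusted p = 0.00734), a call kept in 15 of 16 fits without 1 library. BNIP3 was at 30.3 to 38.3 and 28.7 to 40.7 CPM at 3 h, and at 57 to 69.4 and 31.9 to 43.7 CPM at 12 h (difference 0.80 ± 0.15, adjusted p = 0.0202, kept in 6 of 16). SLC2A1 differed by 0.64 ± 0.12 (kept in 10 of 16), LDHA, which fell with T-REX (-0.52), by 0.69 ± 0.13 (8 of 16), PDK1 by 0.67 ± 0.13 (7 of 16) and PFKFB3 by 0.67 ± 0.14 (3 of 16). STC2, the relative of STC1, was the second most stable call, with a change of 0.34 with light alone and -0.08 with T-REX (difference 0.42 ± 0.07, adjusted p = 0.0118, kept in 14 of 16). The remaining 5 genes, with the difference between the arms in brackets, were TMEM45A (0.69), DOK3 (0.64), NRXN3 (0.54), NR3C1 (-0.31), the glucocorticoid receptor, and ANKRD1 (-1.44). With light alone itself, DOK3 was called lower and NR3C1 higher at 12 h. Without replicate 2 of light alone at 12 h, 0 genes were called, and without replicate 3 of it 1 gene.

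**Figure D5:**
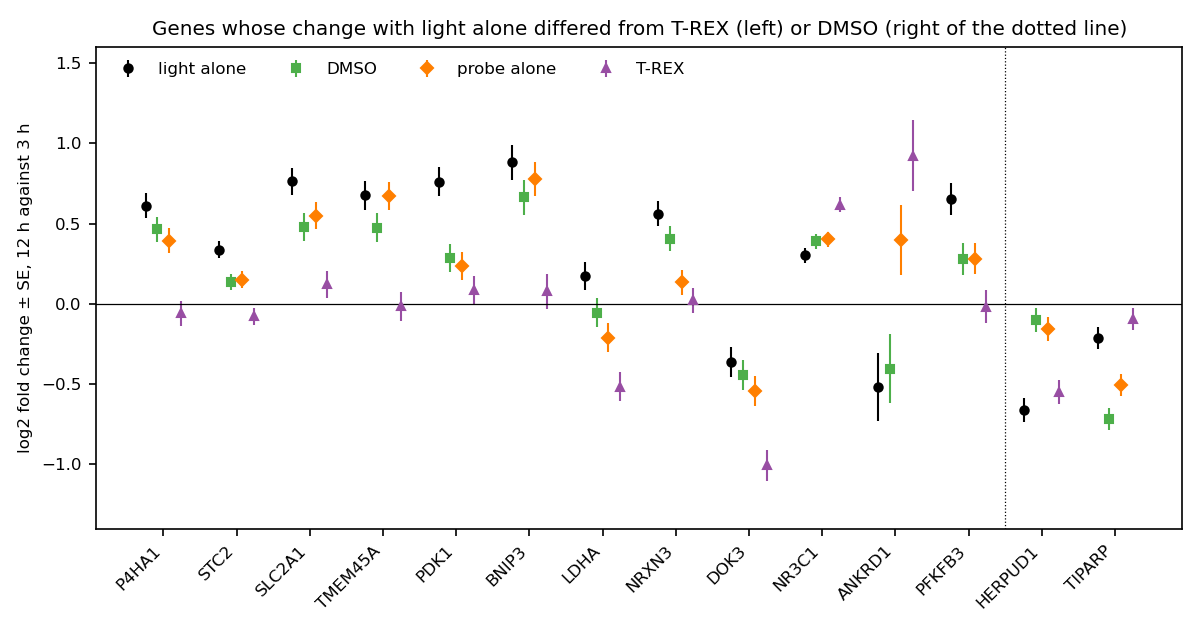
Log2 fold change ± SE, 12 h against 3 h, in each of the 4 arms for the 12 genes whose change differed between light alone and T-REX and, right of the dotted line, the 2 that differed from DMSO. For P4HA1, SLC2A1 and BNIP3 the T-REX values (-0.06, 0.12 and 0.08) lie below those of the other arms, which lie at 0.39 or more.

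Over the whole hypoxia list, in the same fit of 32 libraries, 24 of 33 members were higher and 0 lower with light alone, 18 and 1 with DMSO, 24 and 4 with probe alone, and 10 and 4 with T-REX, with medians of 0.60, 0.35, 0.35 and 0.14. No member of the list was called for a difference between light alone and DMSO or probe alone. The p53 list had 16, 17, 22 and 18 of 25 members higher in that order, and the ribosome biogenesis list 29, 28, 30 and 32 of 38 lower. The unfolded protein response had 17, 18, 20 and 20 of 28 lower, and mitotic genes 21, 29, 29 and 23 of 35 lower. Over all 14685 genes in this fit, 3040 were higher and 2676 lower with light alone, and 2977 and 2735 with DMSO. With probe alone they were 3038 and 3137, and with T-REX 3113 and 2983. Whether the list counts differ between the arms was not tested.

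Against probe alone, 25 genes were called (0.170%) and 1678 had an unadjusted p no greater than 0.05. For 20 of the 25 the signed log2 change with light alone lay above that with probe alone. MID2, a ubiquitin ligase of microtubules, was at 106 to 119 CPM with light alone and 113 to 133 CPM with probe alone at 3 h, and at 137 to 145 and 107 to 118 CPM at 12 h. The arms overlapped at 3 h and were separate at 12 h, with a difference of 0.46 ± 0.09 (adjusted p = 0.0204, kept in 10 of 16 fits without 1 library). MAP2K6 differed by 0.57 ± 0.11 (9 of 16), from 38.5 to 44.1 CPM with probe alone and 26.8 to 33.8 CPM with light alone at 3 h. CYP4F3, a fatty acid hydroxylase, rose in both arms, by 0.64 with light alone and by 1.69 with probe alone, and the difference was -1.05 ± 0.19 (adjusted p = 0.0179, 11 of 16). ABCA1 likewise rose by 0.96 and 1.67 (difference -0.72 ± 0.14, adjusted p = 0.0273, 10 of 16), reaching 45.1 to 56.6 CPM with light alone and 72.4 to 99 CPM with probe alone at 12 h. HERPUD1 differed from probe alone as from DMSO (-0.50 ± 0.10, adjusted p = 0.0313, 9 of 16). These calls depended on single libraries, since 0 genes were called without replicate 1 or 2 of probe alone at 3 h or replicate 3 of light alone at 12 h.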

How the data were processed

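RNA from HEK293T cells was sequenced from ribosomal RNA-depleted stranded libraries on a NovaSeq in paired-end mode, with 4 libraries for each of 4 arms at 3, 6 and 12 h. The authors deposited raw counts per gene for 48 libraries, already filtered for low expression (the lowest count was 2), and the study lists cutadapt, TopHat and Cufflinks among its RNA-seq software. Which of these made the counts, and the genome build and annotation, are not given in the sources used here. GENCODE release 29 held 14556 of the 14685 identifiers and gave 13419 symbols. Further deposited tables with normalized values were not used.

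The 8 light alone libraries at 3 and 12 h were fitted with edgeR's quasi-likelihood F-test (edgeR 4.0.16, R 4.3.3) with TMM factors, in which filterByExpr removed 0 genes. The arms were compared by interaction terms over 32 libraries, and displayed CPM were scaled over all 48 libraries. DESeq2 1.42.0, limma-voom 3.58.1, other factors and filters, a fold of 1.2 (glmTreat), a replicate block and fits without each library were alternatives. Scripts were tested on simulated data. Python 3.11.15 drew the figures.

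The members and lists were chosen with earlier results of these data known. Genes were named by rule: the 12 largest changes each way among called protein-coding genes with a mean of at least 100 counts and no overlap, up to 4 called members and the first listed member of each list, up to 5 differences per arm, and genes the study names. Another 62 named genes, the ER stress element, the fits without pairs of 3 h libraries and the correction for GC content and length were chosen after values were seen. Some genes that the rule picks are not reported here. Promoter sequences are from RefSeq (GRCh38.p14).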

Additional observations from a re-analysis of the deposited data

Results flagged for a closer look

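Values of the named genes, and of library totals and transcript shares, were examined in groups of 4 light alone libraries. In 21 of 418 groups the highest or lowest library lay far from the other 3, where chance gives about 1 in 20. Replicate 4 accounted for several at each time point. At 3 h it was low for BTG2 (63.8 CPM, others 83.4 to 85), AEN (96.3, others 120 to 121), NQO1 (2.92, others 3.73 to 3.86) and PER2 (36.4, others 38.5 to 38.9). At 12 h it was low for STC1 (4.75 CPM, others 7.43 to 7.8) and RRS1 (0.785, others 1.39 to 1.49), and high for CYP27B1 (7.03, others 5.57 to 5.79), NQO1 (4.21, others 3.37 to 3.47) and YARS1 (153, others 131 to 134). For the genes called among these, all libraries of 3 h still lay on 1 side of those of 12 h, which the choice required for STC1 and CYP27B1. Replicate 2 stood apart at 12 h for ID3 (5.07 CPM, others 7.13 to 7.22), UTP15 (45.3, others 52.6 to 53.1), BMP7 (27.4, others 29.4 to 29.6), ANKRD1 (1.49, others 1.3 to 1.32) and AURKA (40.3, others 39.8 to 39.9), and at 3 h for HK2 (74.4, others 70.3 to 70.6). The rest were at 3 h, with replicate 1 for DDB2 (77.6 CPM, others 64.2 to 64.8), TNFRSF19 (3.49, others 2.73 to 2.8) and ZNRF3 (48.3, others 57.7 to 59), and replicate 3 for SMAD6 (16.3, others 12.8 to 13.4), HMMR (61.3, others 67.6 to 68.4) and LOX (8.08, others 5.56 to 5.98). Several of these gaps, as for AURKA and ANKRD1, were small in CPM.

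The change from 3 h to 12 h differed between light alone and another arm by the test of the difference for the genes below, each given as the log2 change with light alone minus that with the other arm. Against DMSO these were HERPUD1 (-0.56) and TIPARP (0.51). Against probe alone the named genes were CYP4F3 (-1.05), ABCA1 (-0.72), HERPUD1 (-0.50), MAP2K6 (0.57), MID2 (0.46) and IRS4 (0.34). Against T-REX they were BNIP3 (0.80), LDHA (0.69), TMEM45A (0.69), PDK1 (0.67), P4HA1 (0.67), PFKFB3 (0.67), DOK3 (0.64), SLC2A1 (0.64), NRXN3 (0.54), STC2 (0.42), NR3C1 (-0.31) and ANKRD1 (-1.44). LDHA was lower at 12 h with T-REX and higher with light alone, while ANKRD1 was low throughout, with means at 3 h and 12 h of 1.95 and 1.35 CPM with light alone and of 1.09 and 2.06 CPM with T-REX. The light alone libraries are common to all of these differences.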

How the results depend on the processing

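The 6390 calls between 3 h and 12 h stayed within 1.5 times under other normalizations, filters and tools (5716 to 6697 genes) and without each library (5606 to 6298), but 1835 passed against a fold of 1.2. The replicate block called 6393 genes, 6164 of them shared. The deviations of same-numbered libraries from their group means had correlations of -0.14, 0.175, 0.069 and 0.242, so that the numbers were not taken to pair samples. Under the block NCBP1 (adjusted p = 0.07), HSPA1B (0.0508), CDH1 (0.0505) and SLC3A2 (0.0838) were not called, BNIP3L, KDM4B and RRS1 were, and no other named gene changed its call. In the fit of 32 libraries 17 named genes lost their call, among them ALDOA, LDHA, CANX and ALDOC, and 2 gained one. After the correction for GC content and length 12 lost it, among them LDHA, CDH1 and CYP1B1, and 7 gained one. Without replicates 1 and 4 of 3 h, 8 lost it, among them ALDOA, and 12 gained one, such as FBL, PKM and P4HA2. Without replicates 2 and 3, 21 lost it, among them SLC2A8, and 11 gained one, such as BBC3, GADD45A and PGK1. TPI1, not called at 0.00, was at -0.15 without replicates 2 and 3 of 3 h and at 0.15 without replicates 1 and 4.

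The differences between arms were less stable, and the cause was not tested. The 2 calls against DMSO were 0 with RLE factors or 16 libraries, 2 with DESeq2 or the block, and 0 to 2 without 1 library. They stayed at 2 without replicate 1 of light alone at 3 h, replicate 4 of light alone at 12 h or replicate 2 of DMSO at 12 h, and were 0 without any other single library of these arms. The 25 against probe alone were 73 with DESeq2, 118 with 16 libraries, 25 with the block (22 shared), 18 with RLE factors and 0 to 35 without 1 library, with 1 left without replicate 2 of light alone at 3 h or replicate 4 of probe alone at 12 h, 9 without replicate 3 of light alone at 3 h, 6, 3 and 14 without replicates 1, 2 and 4 of light alone at 12 h, and 13 without replicate 3 of probe alone at 12 h. The 12 against T-REX were 25 with DESeq2, 4 with 16 libraries (3 shared), 11 with the block (9 shared) and 0 to 18 without 1 library, with 2 left without replicate 1 or 2 of T-REX at 12 h, 5 without its replicate 4, 4 and 3 without replicates 2 and 4 of T-REX at 3 h, 3 without replicate 1 of light alone at 3 h, and 4 without replicate 1 of light alone at 12 h. Fits without 2 libraries of 3 h and the correction for GC content and length were added after the data were seen. Depth limits genes near the lowest count of 2, and p-values cover only the spread between libraries.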

Other observations

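Lists that no comparison above used held changes in both directions. Among amino acid transporters, 7 of 25 were higher and 7 lower. The glutamate transporter SLC1A1 (0.95 ± 0.18) and the neutral amino acid exchanger SLC7A8 (0.57 ± 0.13) rose, whereas SLC7A5 (-0.53 ± 0.14) and its partner SLC3A2 (-0.42 ± 0.12) fell. SLC3A2 was at 85.3, 108, 105 and 77.2 CPM at 3 h and at 70.4, 65.6, 69 and 74.4 CPM at 12 h, without overlap, and its 3 h libraries followed the split of replicates 2 and 3 from 1 and 4. Fatty acid synthesis genes had 6 of 16 higher and 1 lower, with the desaturases FADS1 (0.40) and FADS2 (0.34) and the elongase ELOVL6 (0.29) higher and the acyltransferase GPAM (-0.30) lower. After the correction for GC content and length 3 were higher and 5 lower, and without replicates 1 and 4 of 3 h 7 were higher and 4 lower.

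Of tubulins and actin cytoskeleton genes, 4 of 26 were higher and 5 lower, with TUBA1A (0.47) and the tropomyosin TPM1 (0.47) higher. The counts turned with the 3 h libraries, at 5 higher and 10 lower without replicates 1 and 4 and 8 higher and 3 lower without replicates 2 and 3, and the lower count was 2 to 6 without 1 library. TUBB2A was at 1.83, 2.63, 2.89 and 1.01 CPM at 3 h and at 1.2, 1.43, 1.22 and 1.04 CPM at 12 h, and its libraries overlapped although it was called (-0.76 ± 0.28, adjusted p = 0.037), and it was not called without replicates 2 and 3 of 3 h (adjusted p = 0.597). Tubulin genes resemble each other, so that the division of reads among them is uncertain. Among the MondoA targets, 3 of 10 were higher and 3 lower, with MLXIPL (0.63) higher and the arrestin ARRDC4 (-0.37) lower beside TXNIP. The metallothionein MT2A (0.64), which binds zinc, and the zinc importer SLC39A10 (0.55) rose and the zinc-sensing factor MTF1 (-0.33) fell, among 5 measured genes of zinc handling. Of 7 aryl hydrocarbon receptor targets, 2 were higher, CYP1B1 (0.32) among them, and 2 lower, and without replicates 2 and 3 of 3 h 0 were higher. Of 8 genes of cholesterol efflux, 2 were higher and 0 lower. The 1 mature epithelial marker measured, CDH1, rose by 0.57 ± 0.21 (adjusted p = 0.037) and was not called without replicates 2 and 3 of 3 h.

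RRS1, a ribosome biogenesis factor, was at 1.76, 5.98, 4.59 and 1.5 CPM at 3 h and at 1.39, 1.49, 1.43 and 0.785 CPM at 12 h. Its 3 h libraries parted as those of H2AC25 did, and it was not called (-1.42 ± 0.50, adjusted p = 0.0505).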
